A study of Schizosaccharomyces pombe with 2 samples.

Results

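Introns of the fission yeast *Schizosaccharomyces pombe* are described here from the intron records of a genome annotation, the only processed file that accompanied a chromatin immunoprecipitation sequencing (ChIP-seq) series. The members were all records of the type intron on chromosomes 1, 2, and 3. There were 989 of them among the 33839 records of the whole annotation, 504 on chromosome 1, 313 on chromosome 2, and 172 on chromosome 3. The series has a single group of 2 libraries, replicates 1 and 2, of *swi6*Δ cells (genotype label Swi6D), grown overnight in YES medium and precipitated with the antibody MABI0307 against dimethylated lysine 9 of histone H3 (H3K9me2). Swi6 is a heterochromatin protein of the HP1 family. The labels give no other allele and do not say whether the replicates came from separate cultures. The paper calls the 2 replicates of a genotype independent biological ones and gives MABI0307 as the clone number of the antibody. Control strains of the study were not analysed here. The annotation lists positions only and holds no read, coverage, or enrichment value, so no library could be compared, no test was made, and every value below is a complete count over the annotation that carries no replicate error.

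An intron is the stretch of a transcript that is cut out when the flanking exons are joined. In messenger RNA precursors the spliceosome recognizes the 5′ splice site, which nearly always begins with GT in the DNA sequence, an adenosine called the branch point, and the 3′ splice site, which ends with AG. Fission yeast introns are short and numerous, and in this organism splicing factors also take part in RNA interference (RNAi) at the centromeres. Introns of transfer RNA (tRNA) genes are removed by another machinery, an endonuclease and a ligase, and need no such sequences.

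The sequences at the 2 ends are shown first for introns of genes that recur below, because they carry the signals that the counts describe. They were read from the RefSeq sequence ASM294v3, whose chromosomes have the same lengths as those of the annotation (5579133, 4539804, and 2452883 bases). Each line gives the first 10 bases in transcript orientation, with the 6 bases of the 5′ splice site in capitals.
*rdh54*+, chromosome 1, 704890 to 704924, plus strand: GTAAGAagtt
*emc5*+, chromosome 1, 3791112 to 3791153, plus strand: GTATGTcttt
*cdc2*+, chromosome 2, 1500987 to 1501087, plus strand: GTATATtttt
*arb1*+, chromosome 1, 1900638 to 1900698, plus strand: GTGAGTcatt
*gnd1*+, chromosome 2, 230680 to 231496, plus strand: GTAAGTtttg
*pla1*+, chromosome 2, 930445 to 930487, plus strand: GCAAGAtact

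The last 30 bases of the same introns, and of a few others, follow. Capitals mark the last AG and a branch motif, which is the last CTAAC where one is present and otherwise the last CTNAN, N being any base.
*rdh54*+, 35 bases long: aagtttcaaaacttcattaCTAATggctAG
*chk1*+, 38 bases long, chromosome 3, 1060850 to 1060887, plus strand: tgactgaaattcctttaaaCTAATgatcAG
*emc5*+, 42 bases long: cacatgcggcataaataaaCTAACatacAG
*pla1*+, 43 bases long: ttttgaaattaattatgCTAACtttattAG
*rpl4102*+, 52 bases long, chromosome 1, 2853797 to 2853848, minus strand: tttttgtattttttgCTAACtgagaaatAG
*rpl4101*+, 52 bases long, chromosome 1, 5402111 to 5402162, minus strand: cagacctgcagacttCTAACtttgaattAG
*arb1*+, 61 bases long: tcacgttgtattttagCTAATcaatttaAG
*cdc2*+, 101 bases long: cagcattaatttgtgtcgCTAACcgtttAG
*sir2*+, 163 bases long, chromosome 2, 3611210 to 3611372, minus strand: taattatttaaaaagttaacgattccttAG
*rpl701*+, 441 bases long, chromosome 2, 1791646 to 1792086, minus strand: aatttctactgtattaactgttatgtttAG
*gnd1*+, 817 bases long: tcgaatgtgaatatgCTAACatcattgtAG
The motif's conserved A lay 7 bases before the last base in *rdh54*+, *chk1*+, and *emc5*+ and 11 bases before it in *gnd1*+, although the introns differed from 35 to 817 bases in length. The *sir2*+ and *rpl701*+ introns had no such motif in their last 30 bases that lay clear of the final AG.

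The records were not all introns of protein-coding genes. By coordinates and strand, 945 (95.6%) lay in or at a protein-coding gene, whereas 44 (4.45%) did not. Of all records, 886 (89.6%) filled a gap between neighbouring coding segments of a gene exactly. Another 20 lay upstream of a coding sequence and 6 downstream, and they are counted as introns of 5′ and 3′ untranslated regions (UTRs). A further 32 lay in a coding gene at a position that the gene model did not leave out. There was 1 record on the strand opposite to a coding gap of *rpl2701*+, which encodes a protein of the large ribosomal subunit. The 44 outside coding genes comprised 35 tRNA introns, 5 in or at other RNA genes, and 4 with no gene on their strand. The identifier on the record named a coding gene in 898 cases and an RNA gene in 16, and in 75 cases it was a placeholder with no gene, so these were placed by position. Of the placeholders, 28 filled a coding gap, 23 lay in tRNA genes, and 12 lay in 5′ UTRs.

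Neither was the set a full list of introns. The coding genes had 5058 gaps of at least 20 bases between coding segments, and 886 of them (17.5%) had an intron record, which left 4172 gaps without one. A further 29 gaps were shorter than 20 bases and were not counted as introns. Notes were sorted by words they contain. In 593 records the note had a word of support for the intron and named no RNA. In 303 records (30.6% of all) it had a word for a messenger RNA, a complementary DNA, an expressed sequence tag, or a transcript read. A statement of support was not required of these 303. A note of either kind accompanied 896 records (90.6%). Among the records that filled a coding gap, the share with a note of either kind was 97.6% (865 of 886). The notes of 16 records called the intron possible, predicted, alternative, or removed from the model, and 15 of those 16 did not fill a coding gap.

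Of 5123 protein-coding genes without a pseudogene mark, 2373 (46.3%) had at least one coding gap, and 508 of these (21.4%) had at least one intron record for it. All gaps were recorded in 366 genes and some in 142. Chromosome 1 had records for 20.7% of its 2251 coding gaps, chromosome 2 for 14.6% of 1874, and chromosome 3 for 15.8% of 933. The share showed no steady trend with the number of gaps in a gene. It was 19.7% in the 1052 genes with 1 gap, 15.3% in the 163 genes with 4 gaps, and 23.5% in the 81 genes with 5 gaps. These gene counts, like the counts of gaps, include genes with a pseudogene mark.

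The gene with the most records was *rdh54*+ (SPAC22F3.03c), which encodes a DNA helicase related to Rad54. All of its 14 introns were recorded, and they measured 47, 91, 41, 36, 52, 35, 38, 36, 39, 38, 35, 39, 42, and 35 bases in transcript order. 3 of the 14 had 35 bases, the minimum among the recorded introns between coding segments. Among other genes with many records, *srp2*+, for a serine/arginine-rich RNA-binding protein, had 7 of 9 gaps recorded and *cds1*+, for the replication checkpoint kinase, 7 of 7. *rtf1*+, for a replication termination factor, *cdc24*+, for a replication protein, *nbs1*+, for a subunit of the Mre11 complex, and *chk1*+, for the DNA damage checkpoint kinase, each had 6 of 6. The gene with the most gaps, *trt1*+ for the telomerase reverse transcriptase, had 15 gaps and no record.

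Introns between coding segments were short. Their median length was 58 bases, with quartiles at 48 and 105 bases and a range of 35 to 837 bases, and the gaps without a record had a median of 55 bases with quartiles at 46 and 83. The longest intron of all belonged to SPAC1639.01c (chromosome 1, 252753 to 253589), annotated as a GNS1/SUR4 family protein. The 817-base intron of *gnd1*+, for phosphogluconate dehydrogenase, came next. It was followed by 756 bases in *prr1*+, for a transcription factor, 717 bases in *rad25*+, for a 14-3-3 protein, and 699 bases in *dbp2*+, for an RNA helicase. The record of SPAC1639.01c was the only one of these 5 with no note.

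**Figure D1:**
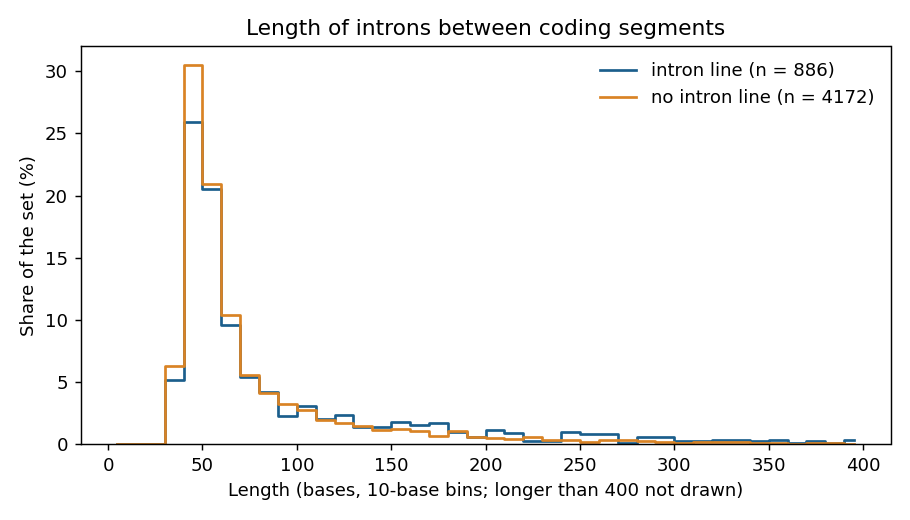
Length of introns between coding segments (x axis, bases, in 10-base bins up to 400) against the share of each set (y axis, %), for the 886 gaps with an intron record and the 4172 without one. Both curves peak between 40 and 49 bases, and the recorded introns have the larger share above 100 bases.

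The long introns were more often recorded than the short ones. Of the gaps of 40 to 49 bases, the most frequent class, 230 of 1503 (15.3%) had a record. The share was 20.8% (149 of 718) for 100 to 199 bases, 27.3% (56 of 205) for 200 to 299 bases, and 30.6% (33 of 108) for 300 bases or more. Within genes of several introns the first and the later ones differed little in length. The median was 56 bases for 211 first and for 468 later recorded introns, and it was 54 and 53 bases for gaps with no record.

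**Figure D2:**
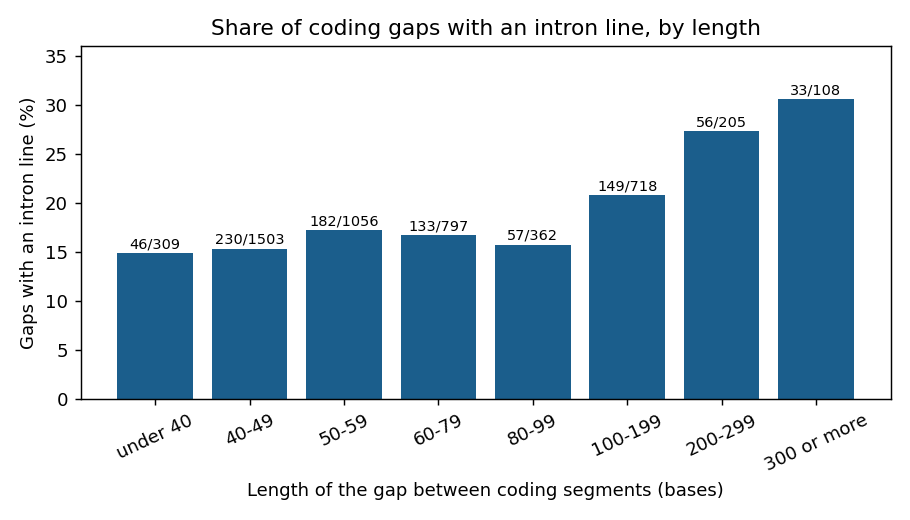
Share of gaps between coding segments that have an intron record (y axis, %) by length of the gap (x axis, bases), with the counts above the bars. The share stays between 14.9% and 17.2% up to 99 bases and reaches 30.6% in the longest class.

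The splice sites followed one pattern. Of the 886 introns between coding segments, 885 (99.9%) began with GT and ended with AG. The exception, an intron of 43 bases in *pla1*+ for the poly(A) polymerase, began with GC. Among the gaps with no record, 4162 of 4172 (99.8%) had GT and AG, and 6 had GC and AG. The commonest first 6 bases were GTAAGT in 256 recorded introns (28.9%) and GTATGT in 192 (21.7%), and 64 different hexamers occurred. The pattern GTANG at the first 5 bases was present in 735 (83.0%), beside 80.6% of the gaps with no record. TAG closed 621 introns (70.1%), CAG 171 (19.3%), and AAG 94 (10.6%). None of the 886 ended with GAG, and only 7 of the 4172 gaps without a record did (0.17%).

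The branch motif lay within a narrow window. CTNAN was searched on the transcript strand only, in the last 50 bases or in the whole intron where it was shorter, and 793 of 886 introns (89.5%) held it. Windows of the same length taken from the end of the following coding segment held it in 435 of 795 cases (54.7%), since so loose a pattern occurs often by sequence alone. The strict form CTAAC was found in 442 introns (49.9%) and in 19 exon windows (2.39%). In gaps with no record the shares were 87.6% for CTNAN and 43.4% for CTAAC. From the conserved A of the last CTNAN to the last base of the intron, the median distance was 11 bases with quartiles at 8 and 13. In the introns that also held CTAAC, the distance of the last CTNAN had a median of 10 bases with quartiles at 8 and 12. Taking the last match favours short distances. In 34 introns the last match touched the final AG itself, as in CTTAG. A match describes these letters and not a site of splicing.

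**Figure D3:**
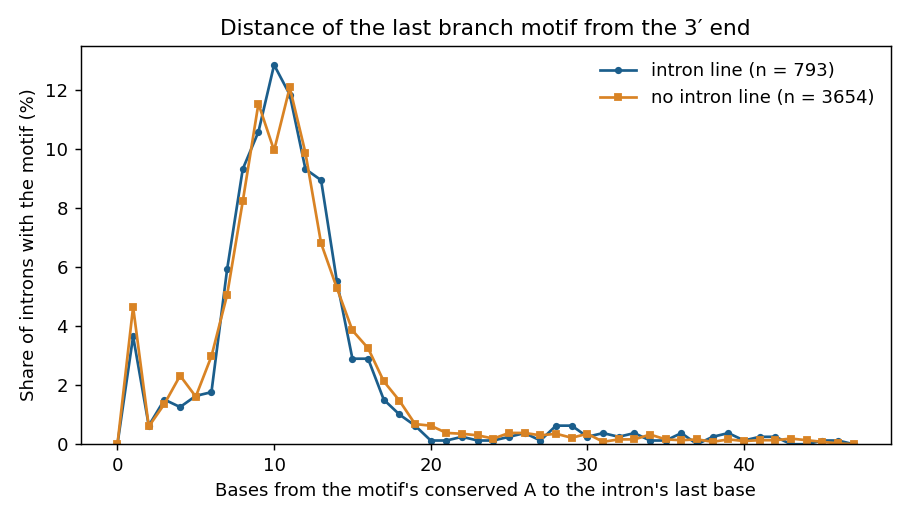
Distance in bases from the conserved A of the last CTNAN to the last base of the intron (x axis) against the share of introns with the motif (y axis, %), for 793 introns with a record and 3654 gaps without one. Both curves peak at 9 to 11 bases, and the small peak at 1 base holds 29 and 170 matches that include the final AG.

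Introns were poorer in G and C than the exons beside them. The median G+C content was 29.5% (quartiles 25.9% and 32.5%) in the recorded introns and 39.9% in the coding segments that flank them, and the intron had the lower value in 842 of 886 cases (95.03%). The gaps with no record had 28.8% beside 38.7%. In the 15 bases before the final AG, the median T content was 40% in both sets.

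Introns lay toward the 5′ end of the transcript. Measured on the spliced transcript, the median position was 28.3% of its length from the 5′ end, with quartiles at 15% and 52.3%. The first 20% of the transcript held 314 introns (35.4%) and the last 20% held 50 (5.64%). Since only gaps between coding segments were counted, none could lie in a UTR, so the shares at both ends are partly fixed by this choice. Measured over the coding length alone, the median position of the 886 introns was 26.7%. The gaps with no record had a median of 27.8%. In genes with a single coding gap the median was 22.5% for 207 recorded and 20.3% for 845 other gaps.

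**Figure D4:**
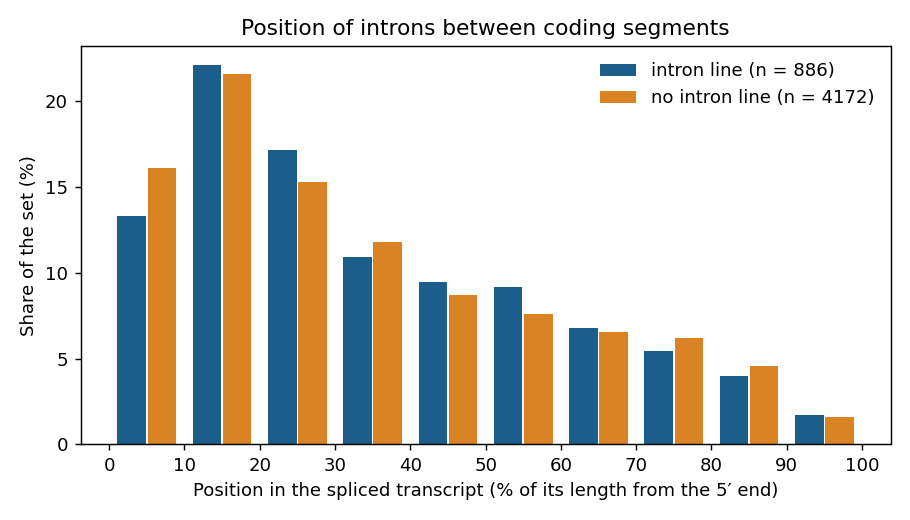
Position of introns between coding segments in the spliced transcript (x axis, % of its length from the 5′ end, in bins of 10%) against the share of each set (y axis, %), for 886 recorded introns and 4172 gaps with no record. The bin from 10% to 20% is the fullest in both sets, with 196 and 900 introns, and the last bin holds 15 and 66. The transcript includes UTRs, in which no gap between coding segments can lie.

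The reading frame was interrupted unevenly. An intron has phase 0 when it lies between codons and phase 1 or 2 when it follows the first or the second base of a codon. In genes whose coding length was a multiple of 3, 359 of 885 recorded introns (40.6%) had phase 0, 309 (34.9%) phase 1, and 217 (24.5%) phase 2. The corresponding shares of the gaps with no record were 41.7%, 32.1%, and 26.2%. Lengths divisible by 3, which keep the frame when the intron stays in, occurred in 278 introns (31.4%), beside 34.6% and 34.0% for the remainders 1 and 2.

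Most introns put a stop codon in the frame. Of the 278 introns whose length was a multiple of 3, 25 (8.99%) had no in-frame stop codon when read on from the upstream exon. The share was 16.7% (51 of 306) where the length left a remainder of 1 and 12.96% (39 of 301) where it left 2. The gaps with no record gave 9.99%, 16.4%, and 15.4%. The longest of the 25 were 105-base introns of *yip11*+ and *yip12*+, which encode SMN family proteins, each of which would add 35 residues if retained. Further examples were a 75-base intron of *erh1*+, for the homolog of enhancer of rudimentary, a 72-base intron of *pot1*+, for the telomere end-binding protein, and introns of 66 and 51 bases in *prp10*+, for a component of the U2 small nuclear ribonucleoprotein.

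Of the records counted as UTR introns, 20 lay upstream and 6 downstream of the coding sequence. A gap between UTR segments was filled by 17 of the 20 and by 1 of the 6. The other 3 and 5 filled no such gap. The 5′ UTR introns had a median of 66.5 bases and all 20 had GT and AG at their ends. The longest was 405 bases in *pss1*+, for a heat shock protein (chromosome 1, 1920202 to 1920606). *lag1*+, for a sphingosine N-acyltransferase, had one of 262 bases, SPAC26H5.09c one of 261, SPBC1711.15c one of 229, and *mpg1*+, for mannose-1-phosphate guanyltransferase, one of 216. Of the gaps between 5′ UTR segments of one gene, 17 of 174 (9.77%) had a record, and of those between 3′ UTR segments 1 of 52 (1.92%).

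The 3′ UTR records were few, with a median of 179.5 bases. They measured 224 bases in *pcr1*+, for a transcription factor, 223 in *pfd1*+, for a prefoldin subunit, 191 and 168 in *spt20*+, for a subunit of the SAGA complex, 167 in *ero11*+, for an oxidoreductin of the endoplasmic reticulum, and 62 in *rpl39*+, for a ribosomal protein. The *pcr1*+ record, which began with TG, was the only UTR record without GT at its start. Its note called it possible, predicted, alternative, or removed from the model. It lay beyond the last transcript segment of the gene and was absent from RefSeq. 3 of these 6 introns held a small nucleolar RNA (snoRNA) gene. SPSNORNA.23, of 101 bases, lay in the *pfd1*+ intron, SPSNORNA.18, of 47 bases, in the shorter *spt20*+ intron, and SPSNORNA.26, of 86 bases, in the *ero11*+ intron.

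Another 5 records that held a whole RNA gene filled a coding gap. snoRNAs guide chemical modification of ribosomal RNA, and some are made from excised introns. SPSNORNA.11 (83 bases) lay in an intron of 253 bases of *cpc2*+, for the RACK1 protein of the ribosome, and SPSNORNA.15 (74 bases) in one of 293 bases of SPAC29A4.02c, for a subunit of a translation elongation factor. SPSNORNA.22 (81 bases) lay in one of 332 bases of *gua1*+, for IMP dehydrogenase, and SPSNORNA.24 (78 bases) in the 441-base intron of *rpl701*+, for ribosomal protein L7. The remaining one, SPNCRNA.497 (75 bases), in an intron of 252 bases of *rps3*+ for ribosomal protein S3, was listed as a miscellaneous RNA. All 8 host introns were at least 167 bases long, above the upper quartile of 105 bases for introns between coding segments. They were picked for holding a whole RNA gene, of 47 to 101 bases, so very short introns could not be among them.

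Of the 32 records that lay in a coding gene and filled no gap, 14 were wholly inside a coding segment, 13 shared one end with a gap, and 5 crossed the end of a segment. Of the 14 inside a coding segment, 14 had GT and AG, and 10 had a length divisible by 3, so that both forms of the transcript keep the frame. They included 48 bases in *iec1*+, for a subunit of the Ino80 complex, 78 bases in *lsd2*+, for a putative histone demethylase, 114 bases in *ulp1*+, for a SUMO-removing enzyme, and 156 bases in *zas1*+, for a zinc finger protein. The notes of 6 of the 14 called the intron possible, alternative, or predicted. RefSeq contained a single one of the 32, that of *zas1*+.

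The 13 records with one shared end differed from the gap at the 5′ end in 6 cases and at the 3′ end in 7. The difference was 1 base in *erg27*+, for a sterol reductase, *pch1*+, for a cyclin, *pet117*+, for an assembly protein of cytochrome c oxidase, *eaf1*+, for an elongation factor of RNA polymerase II, and SPAC23D3.17, and 2 bases in *vas2*+, for an adaptor complex subunit. In these 6 cases the ends on the record were not GT and AG, while those of the gap were. In *vma13*+, for a subunit of the vacuolar ATPase, the record ended 201 bases before the end of the gap. In *vps38*+ it began 192 bases after the start of the gap. Both pairs of ends were GT and AG, and both differences are multiples of 3. In all, 12 records outside tRNA genes had ends other than GT or GC and AG. Beside these 6 and those of *rpl2701*+, *pcr1*+, and *snu6*+, they were SPBC16H5.12c, the snoRNA gene SPSNORNA.42, and a record at 900128 to 900198 of chromosome 3 with no gene on its strand.

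The tRNA introns formed a group of their own. Of 170 tRNA genes on the 3 chromosomes, 35 (20.6%) had an intron record, for 10 amino acids. They were 7 to 30 bases long with a median of 10 bases, all 35 followed the first 36 to 39 bases of the gene, and 0 of 35 had GT and AG. The shortest, of 7 bases, lay in a methionine tRNA gene, and those of 8 bases in lysine and valine tRNA genes. The 35 introns had 21 different sequences. Those found more than once, and the longest, are printed whole because the copies show how alike these genes are. Capitals are not used here, since no part was singled out.
Valine, 6 copies, 9 bases: tttacagtt
Leucine, 4 copies, 19 bases: taatacttggacgatagtc
Lysine, 4 copies, 8 bases: tgatggtc
Lysine, 2 copies, 8 bases: cgaatggt
Tyrosine, 2 copies, 10 bases: ttataaagat
Serine, 2 copies, 11 bases: ttctgtagccc
Arginine, 1 copy, 30 bases: tacgacctgatcgttgttggggagtgaatt
The valine and leucine copies were shared by chromosomes 2 and 3, and the tgatggtc form of lysine by all 3 chromosomes.

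Many of these copies lay at the centromeres of chromosomes 2 and 3. At some centromeres, clusters of tRNA genes flank the heterochromatic repeats and act as boundaries. The paper states that tRNA genes flank the inverted repeats of centromere 3 but not those of centromere 1. The spans of the centromeric repeats contained 7 tRNA introns and no other intron record, and a further 9 tRNA introns lay within 50 kb outside them, so 16 of the 35 (45.7%) were at a centromere. Of all 170 tRNA genes, with or without an intron, 56 (32.9%) lay in the same regions. Of the 6 valine copies, 3 lay inside and 3 beside the repeats. Of the 4 leucine copies, 3 lay inside and 1 beside them. The arginine intron and the serine copies lay elsewhere.

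Introns of coding genes around the heterochromatic regions were recorded about as often as others. Within 50 kb of the centromeric repeats 29 of 151 coding gaps (19.2%) had a record, within 100 kb of the chromosome ends 13 of 76 (17.1%), and in the rest of the genome 844 of 4831 (17.5%). The genes themselves differed more. A coding gap was present in 72 of 135 genes (53.3%) near the centromeres, in 45 of 188 (23.9%) near the chromosome ends, and in 2256 of 4800 (47.0%) in the rest.

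Among the first 5 protein-coding genes on each side of the 3 centromeres, 17 of 30 had a coding gap, with 41 gaps in all. Records were present for 10 of these gaps in 4 genes. *emc5*+, which encodes a component of the ER membrane complex and is the first gene to the right of centromere 1, had a single intron of 42 bases (3791112 to 3791153), and it was recorded. Its neighbour *rad50*+, for a subunit of the Mre11 complex, had 4 gaps of 49, 43, 37, and 39 bases in transcript order and no record. On the left side, *gua2*+, for GMP synthase, had both of its gaps recorded. At centromere 3, *chk1*+ had all 6 gaps recorded, and *cmc2*+, for a copper-binding protein of mitochondria, its only one (1144647 to 1144708). None of the 10 genes nearest to centromere 2 had a record, although *rpb1*+, for the largest subunit of RNA polymerase II, had 6 gaps.

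At the chromosome ends, 8 of the 30 outermost genes had a coding gap and 2 of their 10 gaps had a record. Both were introns of 58 bases in genes of the fission yeast DUF999 family at the right end of chromosome 2, SPBCPT2R1.01c (4506926 to 4506983) and SPBCPT2R1.04c (4514054 to 4514111), and their sequences were identical.

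Few introns consisted of repeated sequence. When every 50-base stretch that holds a base of the intron was compared with the whole genome on both strands, 859 of 886 introns between coding segments (97.0%) had no stretch that occurred again, and in 19 (2.14%) over 50% of the stretches did. Of the 35 tRNA introns, 20 (57.1%) were above 50%. The 19 belonged to pairs and families of like genes. They included introns of *wtf4*+, *wtf9*+, *wtf13*+, *wtf19*+, and *wtf23*+, members of a family of spore-killing elements, *yip11*+ and *yip12*+, *rpn502*+, for a proteasome subunit, and the subtelomeric DUF999 genes. There were 7 groups of 2 identical introns between coding segments, 3 of them among *wtf* genes and 2 between *yip11*+ and *yip12*+. A 50-base stretch that occurs again cannot be placed at a single locus by its own sequence. Whether sequencing reads from such introns could be placed was not tested, because read length was not examined. With 797 of 886 introns (89.95%) shorter than the 200-bp windows in which the study tiled the genome for ChIP-seq, a window seldom lies in one intron alone.

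**Figure D5:**
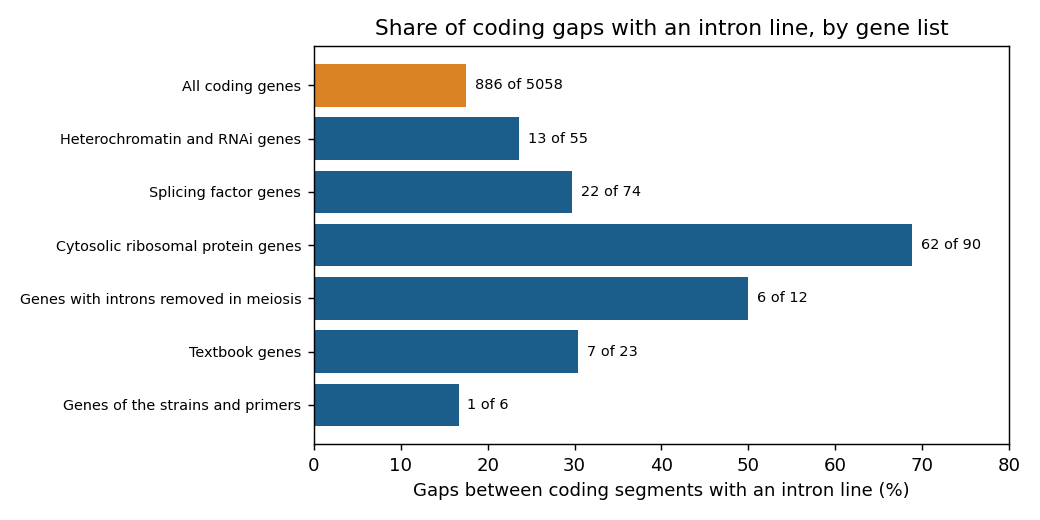
Share of gaps between coding segments with an intron record (x axis, %) for all coding genes and for 6 gene lists, with the counts beside the bars. The ribosomal protein bar, 62 of 90 gaps, includes the genes of 2 ribonuclease subunits that match the symbol pattern, and all other bars lie at 50% or below.

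Of the 6 lists, ribosomal protein genes had the largest share of gaps with a record. The symbol pattern (rpl, rps, or rpp and a digit) matched 141 genes, of which *rpp40*+ and *rpp21*+ encode subunits of ribonuclease P and MRP. Of the other 139 genes, 74 (53.2%) had a coding gap, and 60 of their 86 gaps (69.8%) had a record, beside 826 of 4972 (16.6%) in all other coding genes. The recorded introns of the 141 genes were long, with a median of 101.5 bases and quartiles at 59.3 and 178 bases, and 33 of 62 (53.2%) had at least 100 bases. In other genes the median of recorded introns was 57.5 bases and 24.9% had at least 100. The 28 gaps of the list without a record had a median of 58.5 bases.

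Members of this list varied widely. *rpl701*+, *rpl702*+, *rps502*+, and *rpl35*+ had introns of 441, 291, 288, and 284 bases, whereas those of *rpl1601*+ and *rps1002*+ measured 46 and 48 bases. Paralogs could differ or match in length. *rpl701*+ and *rpl702*+, for the same protein, had 441 and 291 bases, *rpl2301*+ and *rpl2302*+ 111 and 265, and *rpl4101*+ and *rpl4102*+ 52 bases each. The 52-base introns printed above had the branch motif at the same distance of 11 bases but different sequences around it. CTAAC was present in 42 of 62 recorded introns of the list (67.7%), beside 48.5% in other genes, and GTATGT at the 5′ splice site in 20 (32.3%), beside 20.9%.

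Genes for heterochromatin and RNAi were counted in the same way. Of 38 genes matched from a list of 39, 13 (34.2%) had a coding gap, beside 46.3% of all coding genes. Records were present for 13 of their 55 gaps (23.6%), in only 4 genes, beside 17.5% of all coding gaps. *swi6*+, the gene deleted in these cells, and *clr4*+, for the H3K9 methyltransferase, had no coding gap. The argonaute-binding proteins Arb1 and Arb2, which hold Ago1 with its small RNA, were encoded by genes with 4 of 4 and 3 of 5 gaps recorded. The *arb1*+ introns measured 41, 39, 39, and 61 bases. *sir2*+, for a histone deacetylase, had 5 of 5 recorded, of 163, 41, 130, 85, and 64 bases, and *red1*+, for a factor in the elimination of meiotic RNA, 1 of 3. *clr6*+, for another histone deacetylase, had 13 gaps and *ers1*+, for an RNAi factor, 10, and neither gene had a record. *ago1*+ had a single gap of 371 bases, and *chp2*+, for the other HP1 protein, one of 37, both without a record.

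Splicing factor genes had introns more often. Of 43 genes, 29 (67.4%) had a coding gap. Of their 74 gaps, 22 (29.7%) were recorded, in 9 genes, beside 17.5% of all coding gaps. *srp2*+ had 9 gaps of 44, 56, 40, 52, 49, 190, 88, 44, and 55 bases, of which 7 were recorded. *lsm2*+, for a protein of the U6 small nuclear ribonucleoprotein, had 3 of 3, of 53, 352, and 58 bases. *cdc5*+, for a subunit of the Prp19 complex, had 3 of 5. *bpb1*+, for the protein that binds the branch point, had a single intron of 46 bases with a record. *prp17*+ had 4 coding gaps without a record and a recorded 5′ UTR intron of 44 bases. The note of that UTR record called it possible, predicted, alternative, or removed from the model, and RefSeq did not contain it. The U6 RNA gene itself, *snu6*+, carried a record of 51 bases (chromosome 1, 2562323 to 2562373) with GT at its start and GA at its end.

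The smaller lists were mixed. Of genes whose introns are removed in meiosis, *crs1*+, for a meiotic cyclin, had 4 of 4 gaps recorded, of 41, 40, 52, and 48 bases, and *spo4*+, for a kinase of spore formation, 2 of 2, of 122 and 260 bases. *rem1*+, *mes1*+, and *meu13*+ had 1, 1, and 4 gaps and no record. Of textbook genes, *cdc2*+, for the cyclin-dependent kinase, had introns of 68, 72, 101, and 54 bases, of which the first 3 were recorded. *nda2*+, for α-tubulin, had one of 90 bases with a record, and *nda3*+, for β-tubulin, 5 gaps with none.

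RefSeq lists the same introns in most cases. All 886 introns between coding segments had the same first and last base in the RefSeq annotation, as did 4133 of 4172 gaps with no record (99.1%). Of the tRNA introns 34 of 35 were found, the exception being one of the lysine copies with cgaatggt, of the 5′ UTR records 12 of 20, and of the 3′ UTR records 5 of 6. In the other direction, 904 of 5205 RefSeq introns of protein-coding messenger RNAs (17.4%) had a record in the deposited annotation.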

How the data were processed

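The values in the deposited file are positions, where each GeneDB feature starts and ends (counted from 1), and no other measurement. The authors gave no score, and their aligner and the depth of the 2 libraries are not given in the sources used here. All intron records of chromosomes 1 to 3 were taken. Gaps were computed between coding segments of one identifier, and those under 20 bases were left out. The 32 pseudogenes were left out of counts of genes, but not of counts of gaps or of genes by their number of gaps. Transcripts were built from UTR and coding segments. Centromeres were the cnt repeats extended by repeat features within 10 kb. Symbols and sequences came from RefSeq (ASM294v3). Members and gene lists were chosen with earlier results of these data known. Genes named were the 5 longest and shortest introns, the genes with most introns, UTR introns, irregular ends, RNA hosts, boundary genes, and list members. Not every gene that this rule covers is reported here. Introns printed were chosen after their values were seen. Functions for ends, gaps, position, phase, stop codons, and the branch motif were tested on 200 simulated introns, and all 200 were recovered. Apart from planted sequences these held only C and G, so the branch search met few of the competing matches that real introns can hold. The sorting into classes, regions, repeats, and notes was not tested in this way. Scripts ran in Python (3.11.15) with the packages NumPy (2.4.6), SciPy (1.17.1), and, for plots, Matplotlib (3.10.9).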

Additional observations from a re-analysis of the deposited data

How the results depend on the processing

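The count of 989 introns depends on the annotation, as RefSeq gives 5205, and so does the share of protein-coding genes with an intron record of their identifier, 10.13% as deposited and 48.01% in RefSeq. The share of introns in UTRs was 1.22% by identifier (11 of 898). It was 2.75% when placed by coordinates, an alternative chosen after seeing the data. Counting every record that fills no coding gap gave 4.45% (40 of 898). That count also takes in records within the coding span, so it is not a share of UTR introns alone. GT and AG were found in 95.1% of all records, in 99.4% of RefSeq introns, in 98.3% of records of 20 to 1000 bases, and in 99.9% of those between coding segments (added after seeing the data). The branch motif was found in 87.0% of all records, in 47.3% with CTAAC only, in 82.5% in the last 30 bases, and in 89.5% between coding segments (also added). The median position was 28.0% over 945 records and 25.1% in genes with 1 intron record. The other 10 of 21 alternatives, among them those of the median length of 58 bases and of the share of frame-keeping introns without a stop, stayed within 1.5 times a count or within the 95% interval of the value as reported, which covers counting error only. No paired analysis was possible because the annotation holds no value of either replicate.

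The records cover 17.5% of the coding gaps and carry notes on evidence, so shares over records describe introns that were annotated and not a sample of all introns. The categories of the notes were read from their wording. Genes of near-identical copies share intron sequence. No H3K9me2 level was analysed here.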
